A study of Mus musculus with 20 samples.

Results

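The let-7 family of mouse microRNAs (miRNAs), with its relative miR-98, was followed through small RNA libraries of 20 hearts. Its 9 members were picked by name from the 1545 entries of the deposited table: the 5p strands of let-7a, let-7b, let-7c, let-7d, let-7e, let-7f, let-7g and let-7i, and miR-98-5p. All 9 passed the filter on low values (at least 5 RPM, reads per 1000000 reads of a library, in at least 4 libraries), which left 360 entries to test. The hearts came from C57BL/6J mice in 4 groups: 5 sham hearts, 4 with myocardial infarction (MI), 4 with CIH alone and 7 with the combination, MI+CIH. The letters CIH are not spelled out in the labels and are taken as chronic intermittent hypoxia, since the series title concerns disordered breathing in sleep and the heart after infarction. The labels give the tissue as heart for every group, name no allele or drug, and give no age, sex, hypoxia schedule or time after infarction. They also do not say that each library is a separate animal, so the p-values here measure the spread between these libraries.

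let-7 miRNAs are cut from hairpin precursors by Drosha and Dicer, and the 5p strand is then held by an Argonaute protein that uses the seed near its 5′ end to find target messenger RNAs. The family is scarce in early embryos, where LIN28 proteins block the cutting of its precursors, and abundant in differentiated tissue, where it represses growth genes such as Hmga2 and the Ras genes. In the heart it is known for its part in the maturation of cardiomyocytes.

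All 9 mature sequences were found in RefSeq's miRNA table (build GRCm38.p6) and share the seed, bases 2 to 8, shown in capitals. They are printed because the members differ so little that a count for one name depends on how reads with mismatches were assigned, which is not given in the sources used here.
let-7a-5p: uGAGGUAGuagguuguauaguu
let-7b-5p: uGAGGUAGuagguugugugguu
let-7c-5p: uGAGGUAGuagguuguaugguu
let-7d-5p: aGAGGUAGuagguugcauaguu
let-7e-5p: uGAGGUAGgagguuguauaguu
let-7f-5p: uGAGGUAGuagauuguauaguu
let-7g-5p: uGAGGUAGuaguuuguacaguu
let-7i-5p: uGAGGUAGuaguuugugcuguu
miR-98-5p: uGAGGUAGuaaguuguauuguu

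Each member has 22 bases, and the 36 pairs of members differ at 1 to 6 positions. In 4 pairs a single base separates the names. Written with the base of let-7a-5p first and positions counted from 1 at the 5′ end, let-7c-5p differs by A19G, let-7e-5p by U9G and let-7f-5p by G12A. let-7b-5p carries A17G and A19G, and so lies 1 base from let-7c-5p. let-7d-5p carries U1A and U16C, let-7g-5p G12U and U18C, and miR-98-5p G11A and A19U. let-7i-5p stands farthest from let-7a-5p, with G12U, A17G, U18C and A19U. Besides the 9 members, let-7k and miR-1961 have the same bases 2 to 8 in the RefSeq table. let-7k was listed at 0 to 0.295 RPM, and no value was used for miR-1961.

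The members come from 12 hairpins (coordinates in GRCm38.p6, the same in the GENCODE M21 annotation). Mirlet7a-1 (chromosome 13, 48538179 to 48538272, minus strand), Mirlet7f-1 (48537829 to 48537917) and Mirlet7d (48536012 to 48536114) lie in an exon of the long non-coding RNA 6720427I07Rik, with 261 bases between the first pair and 1714 between Mirlet7f-1 and Mirlet7d. Mirlet7c-2 (chromosome 15, 85706603 to 85706697, plus strand) and Mirlet7b (85707319 to 85707403) lie 621 bases apart in an exon of Lncppara. Mirlet7f-2 (chromosome X, 151912346 to 151912428, plus strand) and Mir98 (151913214 to 151913321) share an intron of the ubiquitin ligase gene Huwe1, 785 bases apart. Mirlet7g lies in an intron of Wdr82 (chromosome 9, 106178840 to 106178927, plus strand) and Mirlet7i in an exon of the pseudogene D630033A02Rik (chromosome 10, 122985640 to 122985724, minus strand).

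The remaining hairpins sit beside miRNAs of the miR-99/100 and miR-125 families. Mirlet7c-1 (chromosome 16, 77599657 to 77599750, plus strand, intron of Mir99ahg) is 656 bases from Mir99a. Mirlet7e (chromosome 17, 17830352 to 17830444, plus strand, intron of Spaca6) is 367 bases from Mir125a. Mirlet7a-2 (chromosome 9, 41536716 to 41536811, plus strand, intron of 3110039I08Rik) is 5211 bases from Mir100. let-7a-5p, let-7c-5p and let-7f-5p each arise from more than 1 hairpin, so their reads cannot be divided between loci.

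The libraries held 1991323 to 18138415 reads, and 1 read was worth 0.0551 to 0.502 RPM. Counting error alone gave the members' single-library values a 95% half-width of 0.338% to 18.2%, and intervals here cover counting error only. Of the markers used to check the heart label, the muscle miRNA miR-1a-3p was abundant in every library, at 69203 to 314224 RPM. Of the neural markers, miR-124-3p was at 0 to 5.31 RPM and miR-9-5p at 58.3 to 732 RPM. Clustering on 346 tested entries outside the family, cut to a preset number of 3, divided the libraries into sets that no label mentions. Set A (n = 11) contained every uninfarcted heart (5 sham, 4 CIH) plus the hearts MI 2 and MI+CIH 1. In set B (n = 6) were replicates 1 and 3 of MI and replicates 2 to 5 of MI+CIH, and in set C (n = 3) replicate 4 of MI and replicates 6 and 7 of MI+CIH. Within sets, pairs of libraries correlated across entries with a Pearson's r of 0.899 to 0.994 (73 pairs), and between sets with 0.685 to 0.932 (117 pairs). The sets were formed from these same r values, so the r values cannot test the sets, and the 2 ranges overlapped. Since no uninfarcted heart fell in sets B and C, set and infarction cannot be told apart in the pooled comparisons. MI 2 and MI+CIH 1 sat with the uninfarcted hearts, and calls in comparisons of infarcted hearts are also given without them.

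The family took a small share of the library in sham and CIH hearts and a far larger one in most infarcted hearts. Summed over the 9 members, its level was 9496 ± 1718 RPM (SD, n = 5) in sham and 9942 ± 1045 RPM (n = 4) in CIH. It was 51541 ± 27134 RPM (n = 4) in MI and 83009.8 ± 47974 RPM (n = 7) in MI+CIH. These sums correspond to 0.797% of the library's total in the lowest heart, sham 2 (95% Wilson interval 0.790% to 0.803%). In the highest, MI+CIH 3, they correspond to 15.3% (15.3% to 15.4%). The totals include second copies of other entries, which held 27.2% of the total in sham 2 and 11.5% in MI+CIH 3. Without these copies the family's shares would be higher, by a larger factor in sham 2 than in MI+CIH 3. In a whole heart, more cells of one type and more of a miRNA per cell cannot be told apart.

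The infarcted hearts did not form a single level. MI 2 had 12385 RPM and MI+CIH 1 had 14489 RPM, both above the highest sham heart (11829 RPM). The other infarcted hearts lay between 51472 and 153225 RPM. Set C spanned 51472 to 58176 RPM and set B 68539 to 153225 RPM, so the sets did not overlap. In the plot of reads by library the family bars step up between set A and the others.

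**Figure D1:**
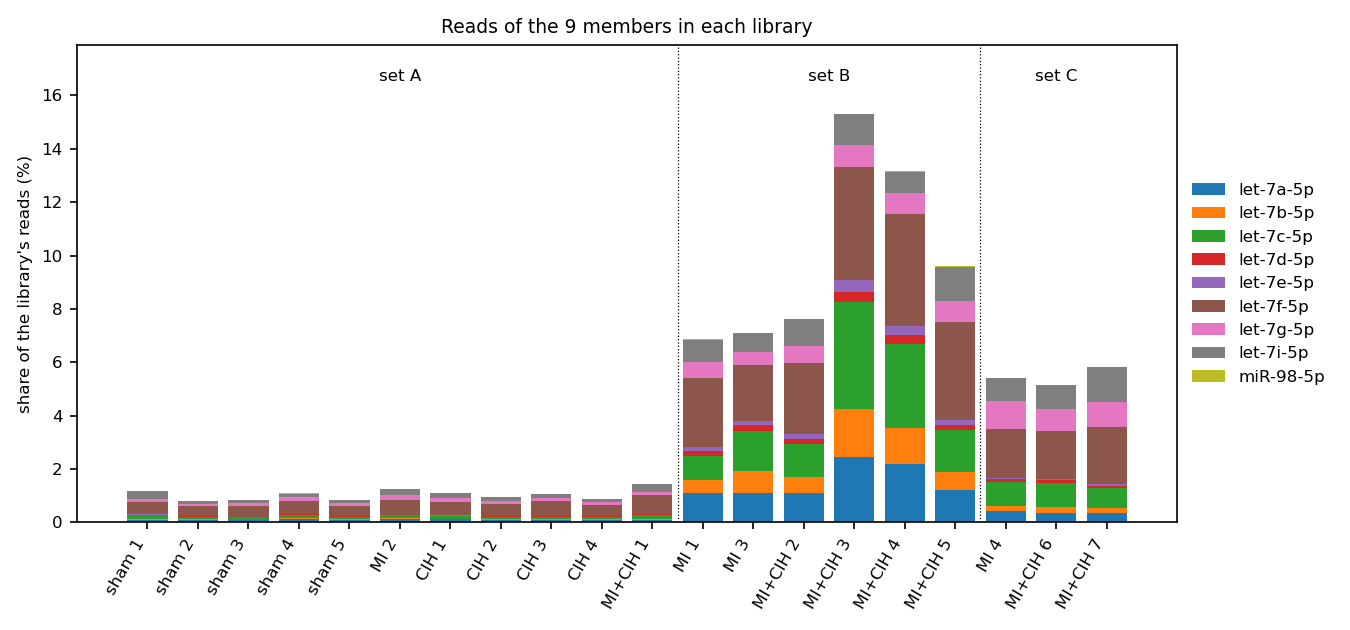
Stacked bars give the share of each library's reads (percent, vertical axis) held by the 9 members, for the 20 libraries ordered by library set and group. The reads include second copies of other entries. The 11 libraries of set A reach at most 1.45%, those of set C 5.15% to 5.82% and those of set B 6.85% to 15.3%.

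By mean RPM, let-7f-5p was the highest member and miR-98-5p the lowest in each of the 4 groups. All members have the same length, so length does not enter this order. Whether each sequence was captured and assigned equally well was not tested, so orders and shares of members are those of reads. let-7f-5p measured 4534, 3698, 4015, 5046 and 3742 RPM in sham 1 to 5 and 5183, 4394, 5649 and 4072 RPM in CIH 1 to 4. It measured 25704, 5624, 20788 and 18241 RPM in MI 1 to 4, and from 6960 over a median of 26486 to 42346 RPM in MI+CIH. Every infarcted heart was thus above every sham heart for let-7f-5p, by less in MI 2 and MI+CIH 1 than in the others, while CIH and sham overlapped.

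In sham the order below let-7f-5p was let-7i, let-7g, let-7c, let-7a, let-7b, let-7d, let-7e and miR-98. The ranges of neighbours were apart only between let-7f and let-7i, let-7a and let-7b, and let-7e and miR-98. The ranges of let-7i and let-7g overlapped, although let-7i was above let-7g within 5 of 5 sham libraries. In MI+CIH, let-7c and let-7a came next after let-7f, with ranges that overlapped those of their neighbours. let-7c-5p was above let-7a-5p in 7 of 7 of these hearts, whereas let-7a-5p was above let-7i-5p in 3 of 7. In set C the order was another again, with let-7g and let-7i next after let-7f.

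**Figure D2:**
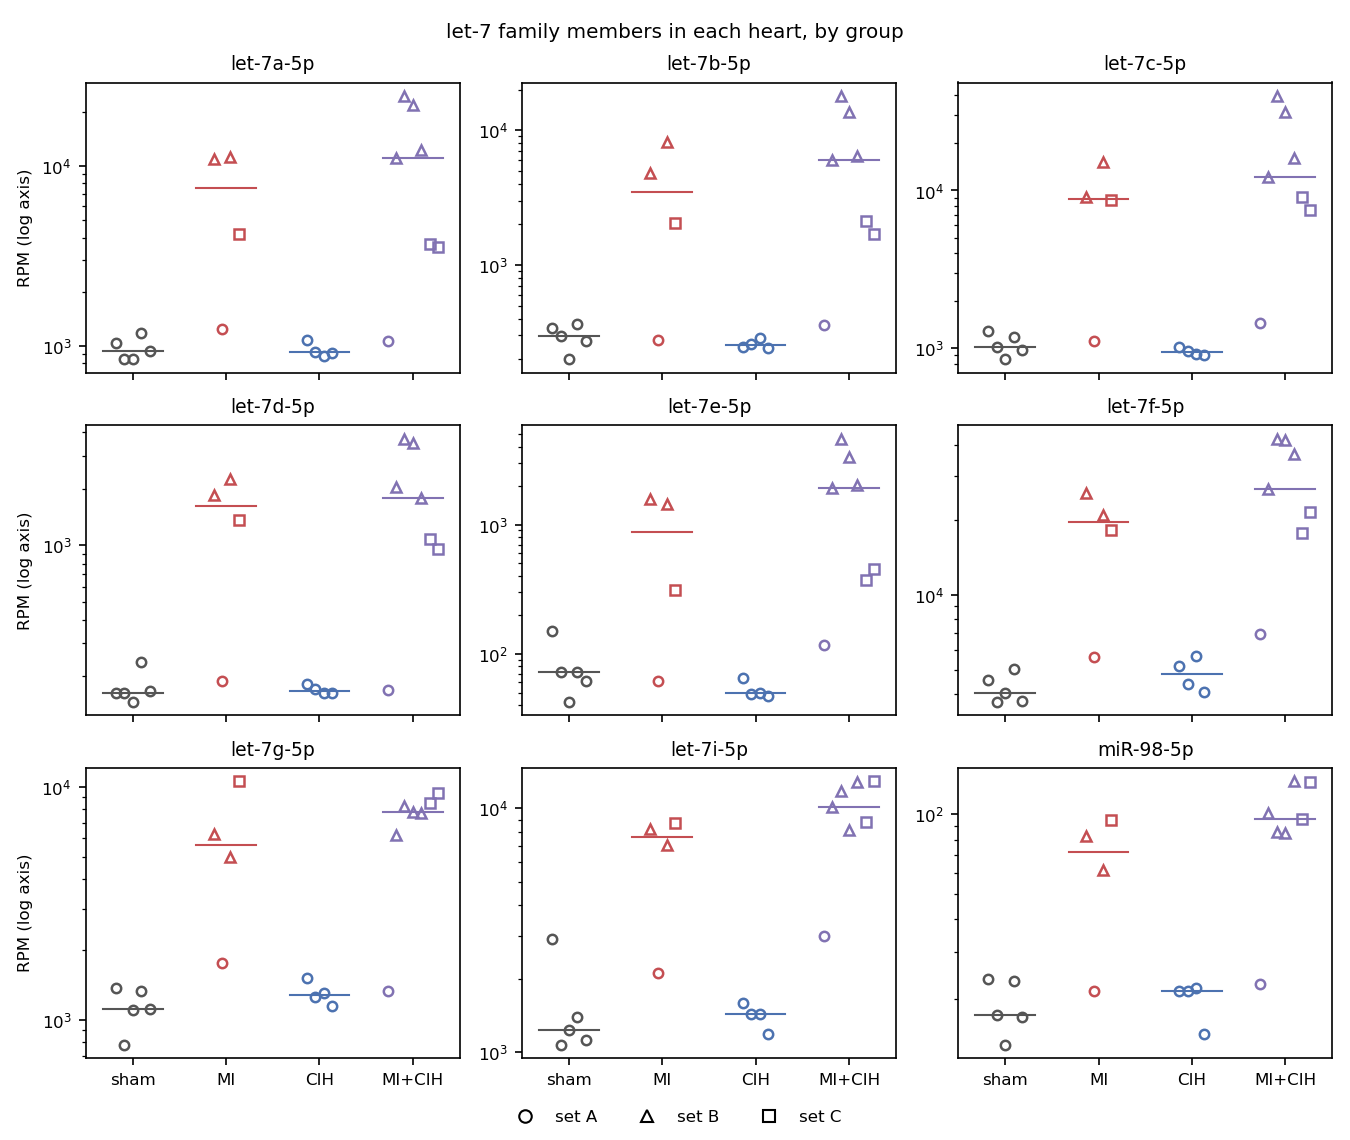
Each panel shows 1 member, with RPM on a log axis against group; points are libraries, their shape gives the library set and horizontal lines are group medians. For each member the sham and CIH points lie at 1 level, most MI and MI+CIH points lie above it, and the infarcted hearts of set A (circles under MI and MI+CIH) lie near the sham level.

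For MI+CIH against sham, which asks how hearts with both insults differ from controls, all 9 members rose (limma, adjusted p from 0.000490 to 0.00253). The table as a whole moved the same way: 52.2% of tested entries rose and 4.44% fell, and the median log2 change over all entries was 1.39 against 2.91 over the members. All 9 members lay above the median of all entries. let-7e-5p, separated from let-7a-5p by its ninth base, had the largest change (log2 change 3.80, SE 0.83, adjusted p 0.00211). It measured 151, 72.6, 42.2, 72.3 and 61.2 RPM in sham 1 to 5 and from 117 over a median of 1919 to 4624 RPM in MI+CIH. MI+CIH 1, at 117 RPM, lay inside the sham range and the other MI+CIH hearts lay above it.

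let-7b-5p changed by 3.73 (SE 0.81, adjusted p 0.00205) and let-7c-5p, its partner in the Lncppara exon, by 3.43 (SE 0.66, adjusted p 0.00107) on the log2 scale. let-7c-5p measured 1289, 1019, 850.3, 1177 and 976 RPM in sham 1 to 5 and from 1448 over a median of 12206 to 39876 RPM in MI+CIH, with no overlap. The chromosome 13 neighbours let-7a-5p and let-7d-5p rose by similar amounts, 2.91 (SE 0.66, adjusted p 0.00253) and 2.96 (SE 0.65, adjusted p 0.00223). let-7f-5p, which shares that transcript, rose by 2.52 (SE 0.43, adjusted p 0.000490). let-7a-5p also has a copy beside Mir100, let-7c-5p beside Mir99a and let-7f-5p in Huwe1. The changes of these members therefore cannot be assigned to 1 locus.

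The smallest changes were those of miR-98-5p (2.11, SE 0.45, adjusted p 0.00205) and let-7g-5p (2.46, SE 0.47, adjusted p 0.00107). miR-98-5p measured 23.8, 17.4, 13.4, 23.3 and 17.1 RPM in sham and from 22.9 over a median of 95.8 to 133 RPM in MI+CIH. Its lowest MI+CIH heart, again MI+CIH 1, fell within the sham range. let-7i-5p rose by 2.63 (SE 0.43, adjusted p 0.000490). It measured 2924, 1072, 1239, 1391 and 1123 RPM in sham 1 to 5, and from 3012 over a median of 10154 to 12902 RPM in MI+CIH. sham 1 was the highest sham heart for let-7i-5p, and MI+CIH 1 lay just above it. let-7c-5p, let-7f-5p and let-7i-5p were the 3 members for which every MI+CIH heart exceeded every sham heart, as 13.6% of all tested entries did.

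These calls depended on scaling and on the library sets. RPM values are shares of a library, so a few abundant entries move all others. Median-of-ratios scaling, which sets the typical entry as the reference, brought the median of all entries to 0.17 and that of the members to 1.56. It still called 8 members higher, all but miR-98-5p, beside 17.8% of entries higher and 13.9% lower. Under TMM scaling 7 members passed (not let-7g-5p or miR-98-5p), beside 14.2% of entries higher and 17.5% lower. On recovered reads DESeq2 called 9 members, beside 29.2% of entries higher and 11.4% lower, and edgeR 7 (not let-7g-5p or miR-98-5p), beside 14.4% higher and 9.17% lower. Without MI 2 and MI+CIH 1 limma called 9 members, beside 59.7% of entries higher and 6.67% lower, with a median change of 3.37 over the members and 1.55 over all entries. Fitted with a term for library set, limma called 0 of 9 members (2 at an unadjusted p under 0.05) and 0 entries in all, against 9 members without the term. The members' changes were then 0.065 (let-7d-5p, SE 0.33) to 1.03 (let-7i-5p, SE 0.34), all positive, with a median of 0.49 beside 0.21 over all entries. In that fit the comparison with sham rests on MI+CIH 1 and, through the shared set terms, MI 2.

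**Figure D3:**
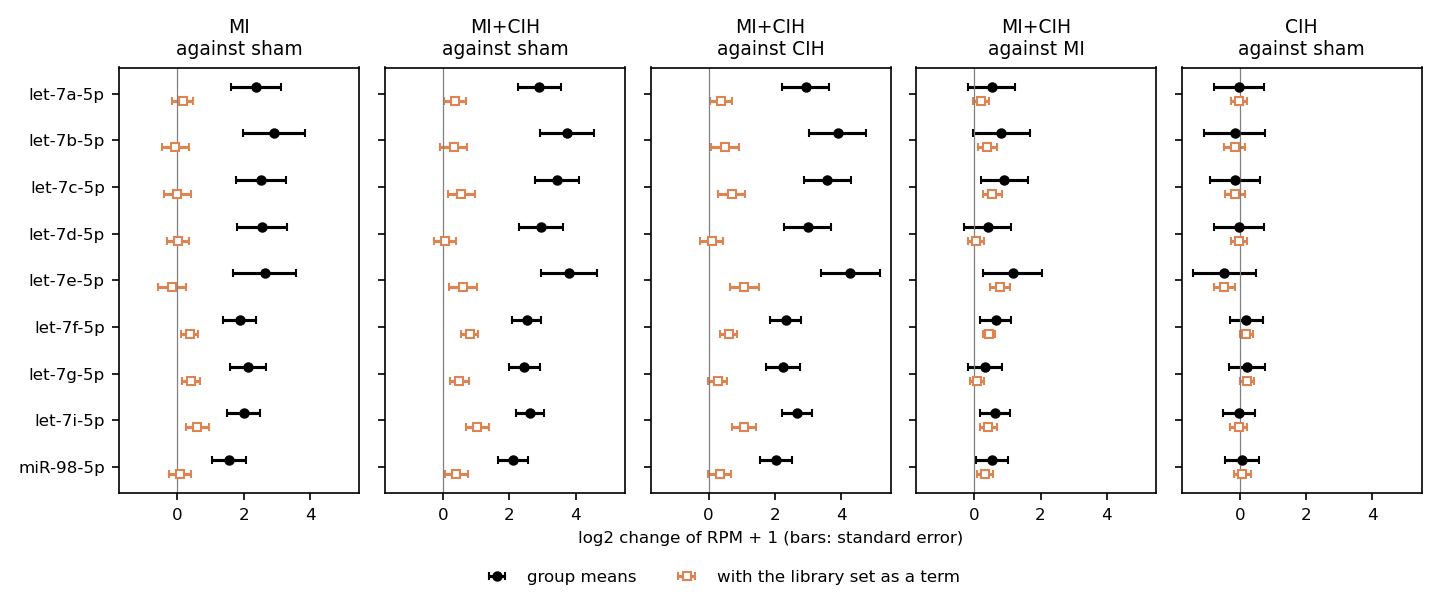
Points give the log2 change of RPM + 1 for each member (rows) in 5 comparisons (panels), with the standard error as bars; filled circles are from group means and open squares from the fit with the library set as a term. In the 3 comparisons of infarcted with uninfarcted hearts the circles lie at 1.56 to 4.27 and the squares at -0.16 to 1.07.

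For MI against sham, the effect of infarction alone, all 9 members had higher means in MI but 0 passed the threshold (adjusted p 0.0701 to 0.120; 9 at an unadjusted p under 0.05). limma called 0 of the 360 entries, which is 0% higher and 0% lower, with 101 at an unadjusted p under 0.05. The median change was 2.38 over the members and 0.94 over all entries. let-7b-5p had the largest change (2.91, SE 0.93, adjusted p 0.0702) and miR-98-5p the smallest (1.56, SE 0.52, adjusted p 0.0851). let-7e-5p had the largest adjusted p (2.63, SE 0.95, adjusted p 0.120). It measured 1565, 61.6, 1436 and 314 RPM in MI 1 to 4, so that MI 2 lay inside the sham range and the other MI hearts well above it.

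let-7g-5p measured 6265, 1743, 5000.3 and 10552 RPM in MI 1 to 4 against 1372, 778, 1106, 1325 and 1116 RPM in sham 1 to 5. let-7g-5p was above the sham range in every MI heart, as were let-7a-5p and let-7f-5p, beside 3.61% of all tested entries. For the other 6 members MI 2 overlapped sham. Without MI 2, limma called 9 of 9 members, beside 29.7% of all entries higher and 1.67% lower. Without MI+CIH 1 it called 8 (not let-7e-5p), beside 8.33% higher and 0.278% lower. Without both of these libraries it called 9, beside 39.2% higher and 3.33% lower. Each of the other single libraries left out gave 0. DESeq2 on reads recovered from the RPM values called 8 members (not miR-98-5p) beside 9.72% of entries higher and 1.11% lower, and edgeR called 0 members and 0% of entries. A filter at a mean of 50 RPM left 5 called: let-7c-5p, let-7d-5p, let-7f-5p, let-7g-5p and let-7i-5p, beside 8.43% of the 166 entries it kept higher and 0% lower.

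The fit with the set term gave 6 of 9 members a positive change in MI against sham, and a median of 0.070 beside -0.040 over all entries. let-7b-5p, let-7c-5p and let-7e-5p were then at or below 0 (-0.067, SE 0.41 for let-7b-5p; -0.16, SE 0.43 for let-7e-5p). This term left MI 2 and MI+CIH 1 as the infarcted hearts to set against sham. Both lay above the highest sham heart for let-7f-5p alone. MI 2 was inside the sham range for 6 of the members, all but let-7a-5p, let-7f-5p and let-7g-5p, and MI+CIH 1 for 6, all but let-7c-5p, let-7f-5p and let-7i-5p.

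In CIH alone the family sum, 8690.2 to 10894 RPM, lay inside the sham range of 7965 to 11829 RPM. limma called 0 members and 0% of entries, with 0 members and 1 entry at an unadjusted p under 0.05. Its SE is pooled over all groups, including the widely spread infarcted hearts, and was 0.49 (let-7i-5p) to 0.95 (let-7e-5p). The change of let-7e-5p was -0.47 (95% interval -2.45 to 1.51), so sizeable changes are not excluded by this fit. With the set term the SE was 0.19 (let-7f-5p) to 0.32 (let-7e-5p), and the interval of let-7e-5p was -1.14 to 0.20. That fit also called 0 members and 0 entries. edgeR also called 0 entries, and DESeq2 0 members and 0.278% of entries, all higher. The median change of the members was -0.029, beside -0.21 over all entries, and 3 of 9 members were positive. let-7c-5p measured 1014, 964, 916 and 908 RPM in CIH 1 to 4, inside the sham range of 850.3 to 1289 RPM. let-7e-5p measured 64.6, 48.8, 50.2 and 47.3 RPM in CIH 1 to 4, also inside the sham range. The CIH hearts were inside the sham range for 7 of 9 members. let-7f-5p was above the highest sham heart (5046 RPM) in CIH 1 (5183 RPM) and CIH 3 (5649 RPM), and let-7g-5p was above it (1372 RPM) in CIH 1 (1512 RPM). The sign of the members' median changed with scaling, to 0.27 under median-of-ratios and 0.22 under TMM scaling. Without sham 1 it was 0.0080 and without sham 4 it was 0.056.

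MI+CIH against CIH, the effect of infarction in animals with CIH, uses the same MI+CIH hearts as the comparison with sham. All 9 members rose, beside 54.7% of entries that rose and 2.22% that fell, with a median change of 2.93 over the members and 1.51 over all entries. let-7e-5p again changed most (4.27, SE 0.89, adjusted p 0.00196) and miR-98-5p least (2.04, SE 0.49, adjusted p 0.00277). let-7i-5p had the smallest adjusted p (2.66, SE 0.46, adjusted p 0.000712). For 6 members, let-7b-5p, let-7c-5p, let-7e-5p, let-7f-5p, let-7i-5p and miR-98-5p, every MI+CIH heart was above every CIH heart, as for 27.8% of entries.

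More calls changed with scaling in the comparison with CIH. Median-of-ratios scaling called 6 members (not let-7f-5p, let-7g-5p or miR-98-5p) beside 13.6% of entries higher and 12.5% lower, and TMM called 3, let-7b-5p, let-7c-5p and let-7e-5p, beside 10.3% of entries higher and 14.7% lower. edgeR called 5 (not let-7f-5p, let-7g-5p, let-7i-5p or miR-98-5p), beside 10.6% of entries higher and 10.3% lower. DESeq2 called 7 (not let-7g-5p or miR-98-5p), beside 25.6% of entries higher and 11.4% lower. With a set term 0 members and 0 entries passed (3 members at an unadjusted p under 0.05), and let-7i-5p (1.06, SE 0.36) and let-7e-5p (1.07, SE 0.44) had the largest changes in that fit, against 2.66 and 4.27 without the term. Without MI 2 and MI+CIH 1, limma called 9 members beside 62.8% of entries higher and 4.44% lower, with a median change of 3.38 over the members and 1.71 over all entries.

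MI+CIH against MI, the comparison closest to the series title, called 0 members and 0% of entries by limma, edgeR or DESeq2. At limma's unadjusted p under 0.05 there were 0 members and 17 entries. All 9 members had positive changes, with a median of 0.63 beside 0.41 over all entries, and adjusted p of 0.895 to 0.898. The largest was that of let-7e-5p, 1.17 (95% interval -0.68 to 3.01), and the smallest that of let-7g-5p, 0.33 (-0.72 to 1.37). The intervals of all 9 members included 0 and reached 1.37 to 3.01. In 0 of 9 members, and 0.278% of entries, was every MI+CIH heart above every MI heart. After median-of-ratios scaling 7 of 9 were positive, the exceptions being let-7d-5p and let-7g-5p. The size of the difference rested on the same hearts, with 0 members called in each case. Without MI 2, the changes of let-7a-5p, let-7b-5p, let-7d-5p and let-7g-5p turned negative, from -0.40 for let-7d-5p to -0.14 for let-7a-5p, and the members' median was 0.090 beside 0.031 over all entries (0% called). Without MI+CIH 1, the members' median was 0.95 beside 0.61 over all entries, 9 of 9 members were positive and 4 had an unadjusted p under 0.05 (adjusted p 0.499 for each), beside 0.833% of entries called higher. Without both, the median was 0.40 beside 0.20, with 9 of 9 positive and 0% of entries called.

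Given a set term, 2 entries passed (0.556% higher, 0% lower) and 0 members did. The log2 difference of let-7e-5p was 0.77 (SE 0.30, adjusted p 0.262, 95% interval 0.13 to 1.40) and that of let-7f-5p 0.43 (SE 0.18, adjusted p 0.285, 95% interval 0.051 to 0.82). Intervals of the other 7 included 0. Placed beside the MI hearts of its own set, each of the 7 MI+CIH hearts was above all of them for let-7e-5p and for miR-98-5p. let-7f-5p and let-7i-5p were above in 6 of 7, and let-7d-5p was above in 2 and below in 4. Only 1 MI heart lies in set A and 1 in set C, so 3 of these 7 placements rest on a single heart. The placements were not counted over all tested entries. For miR-98-5p several lay within counting error. The 95% intervals were 90.7 to 101 RPM in MI+CIH 6 and 90.9 to 99.9 RPM in MI 4. They were 20.8 to 25.2 RPM in MI+CIH 1 and 19.1 to 23.9 RPM in MI 2. Those of MI+CIH 3 (73.6 to 98.9 RPM) and MI+CIH 4 (73.0 to 98.7 RPM) also overlapped that of MI 1 (76.7 to 88.5 RPM).

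The interaction, which asks whether CIH acted differently in infarcted and uninfarcted hearts, called 0 members and 0% of entries (0 members and 14 entries at an unadjusted p under 0.05). The 95% interval of let-7e-5p, the widest of the 9 members, was -1.07 to 4.34, and those of the others also included 0. With the set term let-7e-5p alone had an interval above 0 (0.31 to 2.16), and 0 members passed. Without that term the members' median was 0.54 beside 0.63 over all entries, and 9 of 9 were positive. Under median-of-ratios scaling the median was -0.21, with 3 positive, and without MI 2 it was -0.014.

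The make-up of the family differed between library sets as well as its amount. let-7f-5p made up 44.7% ± 3.7 (SD, n = 5) of the family sum in sham and 48.4% ± 2.95 (n = 4) in CIH, against 36.5% ± 6.85 (n = 4) in MI and 36.0% ± 6.36 (n = 7) in MI+CIH. By set, its share was 27.6% to 38.3% (B), 33.6% to 37.0% (C) and 38.3% to 52.8% (A). let-7b-5p and let-7e-5p had their largest shares in set B. let-7b-5p held 6.73% to 11.8% there, against 2.23% to 3.74% in set A and 2.93% to 4.11% in set C. let-7e-5p held 2.02% to 3.02% in set B, against 0.469% to 1.27% in set A and 0.578% to 0.779% in set C.

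let-7g-5p went the other way. Its share was 16.1% to 19.5% in set C, 9.19% to 14.1% in set A and 5.39% to 9.14% in set B. let-7i-5p shares were 16.1% to 22.2% in set C and 6.21% to 13.4% in set B, without overlap. let-7a-5p had its largest shares in set B, with 12.8% to 16.5% there, against 6.08% to 7.68% in set C and 7.37% to 11.1% in set A. In MI 2 and MI+CIH 1, the infarcted hearts of set A, let-7f-5p made up 45.4% and 48.0%, inside the range of the sham and CIH hearts. MI+CIH 1 was below all sham and CIH hearts in its shares of let-7a-5p (7.37%), let-7d-5p (1.17%) and let-7g-5p (9.19%). Its share of miR-98-5p (0.158%) was level with the lowest of those hearts, sham 3 (0.158%). MI 2 was just below the sham and CIH hearts for let-7b-5p (2.23%, beside 2.27% in CIH 1). It was just above them for let-7g-5p (14.1%, beside 13.9% in CIH 1). Both gaps of MI 2 were within counting error. These are descriptions of sets found in the data, so no test is given.

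**Figure D4:**
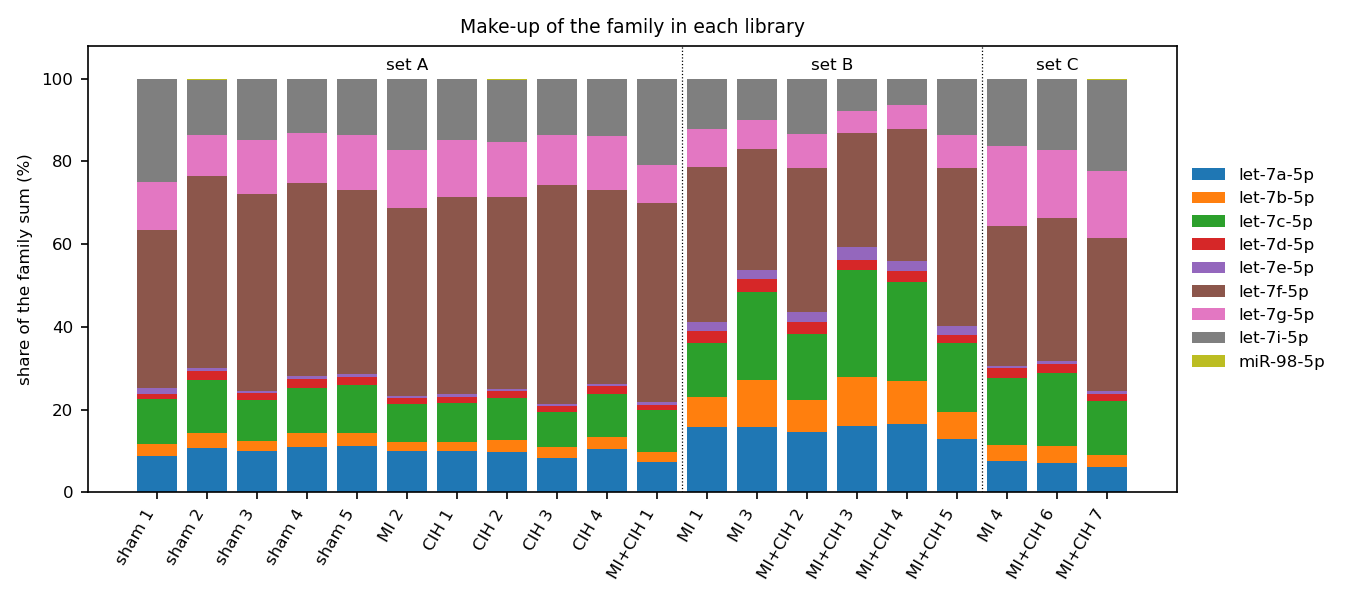
Stacked bars give each member's share of the family sum (percent) in the 20 libraries, ordered by library set and group. let-7f-5p is the widest band in each bar; let-7a-5p, let-7b-5p and let-7c-5p widen in set B, and let-7g-5p and let-7i-5p are wider in set C than in set B.

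Against the median of set A, set B had 32.1 times as much let-7e-5p, 26.4 times as much let-7b-5p and 15.3 times as much let-7c-5p. The ratios were 12.5 for let-7a-5p and 12.9 for let-7d-5p, 6.97 for let-7f-5p, 6.42 for let-7i-5p, 5.34 for let-7g-5p and 3.98 for miR-98-5p. Set C had a narrower spread of ratios, from 3.95 for let-7a-5p to 8.60 for let-7c-5p. let-7g-5p and miR-98-5p had medians in set C above those in set B (9385 against 6978 RPM, and 95.8 against 85.1 RPM), and the other 7 members were lower in set C. The ranges of let-7g-5p in set B (5000.3 to 8255 RPM) and set C (8518 to 10552 RPM) did not overlap, and those of miR-98-5p did.

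Across the libraries of a set most pairs of members were positively correlated. Over 36 pairs of members, Pearson's r of log2 values had a median of 0.603 in set A (n = 11, range 0.0627 to 0.904) and 0.687 in set B (n = 6, range -0.329 to 0.982). The values of a library share its depth and its total, so these are descriptions only. Outside the family and the 5p strands of its listed neighbours, 5 entries were named as most like the members' mean log2 level in both sets. They were miR-125b-1-3p (r = 0.826 in set A, 0.799 in set B), miR-455-3p (0.793 and 0.946), miR-409-3p (0.78 and 0.78), miR-501-3p (0.807 and 0.778) and miR-224-5p (0.854 and 0.776). miR-125b-1-3p comes from the hairpin Mir125b-1, 45114 bases from Mirlet7a-2.

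The other strand of the hairpins gave a different picture from the 5p members. Of 13 further let-7 and miR-98 entries, 5 passed the filter on low values: let-7a-1-3p, let-7b-3p, let-7d-3p, let-7e-3p and let-7i-3p. The 3p sequences of the let-7a and let-7d hairpins are given, with no bases in capitals, because their ratios to the 5p strand are described in detail.
let-7a-1-3p: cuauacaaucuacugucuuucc
let-7d-3p: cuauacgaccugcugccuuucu
let-7c-2-3p has the same sequence as let-7a-1-3p in RefSeq and is not an entry of its own here, so reads under let-7a-1-3p can come from either hairpin.

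let-7d-3p rose in MI+CIH against sham (2.86, adjusted p 0.0172) and against CIH (3.01, adjusted p 0.0174), as did let-7b-3p (2.24, adjusted p 0.0201, and 2.38, adjusted p 0.0193). let-7a-1-3p fell in MI+CIH against sham (-1.18, adjusted p 0.0416), while its 5p partner rose. let-7e-3p passed against CIH alone (1.27, adjusted p 0.0430), and let-7i-3p in neither comparison (0.23 against sham, adjusted p 0.740). Of all tested entries, 52.2% rose and 4.44% fell against sham, and 54.7% rose and 2.22% fell against CIH. None of these 5 strands passed in either comparison with a set term, and their calls under other scalings are not given.

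let-7d was the member whose 3p strand was of the same order as its 5p strand. let-7d-5p gave 1.23 to 2.64 reads per read of let-7d-3p in set A, against 0.861 to 1.37 (B) and 5.35 to 7.16 (C). Sets A and B overlapped through CIH 3 (1.23), and the other set A libraries were above every set B library. In MI 3, MI+CIH 3 and MI+CIH 4 the 3p strand exceeded the 5p strand. let-7a-5p exceeded let-7a-1-3p by 31.8 to 50.2 times in set A, 149 to 199 times in set C and 1217 to 3927 times in set B. In set B the 3p strand of let-7a was down to 11 to 58 reads a library, so these ratios are the least precise. let-7e-5p per let-7e-3p was 9.19 to 24.3 in set A, below 59.8 to 167 in set C and 74.8 to 223 in set B. let-7b-5p per let-7b-3p was 356 to 407 (C), 136 to 236 (B) and 59.0 to 131 (A) by set.

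**Figure D5:**
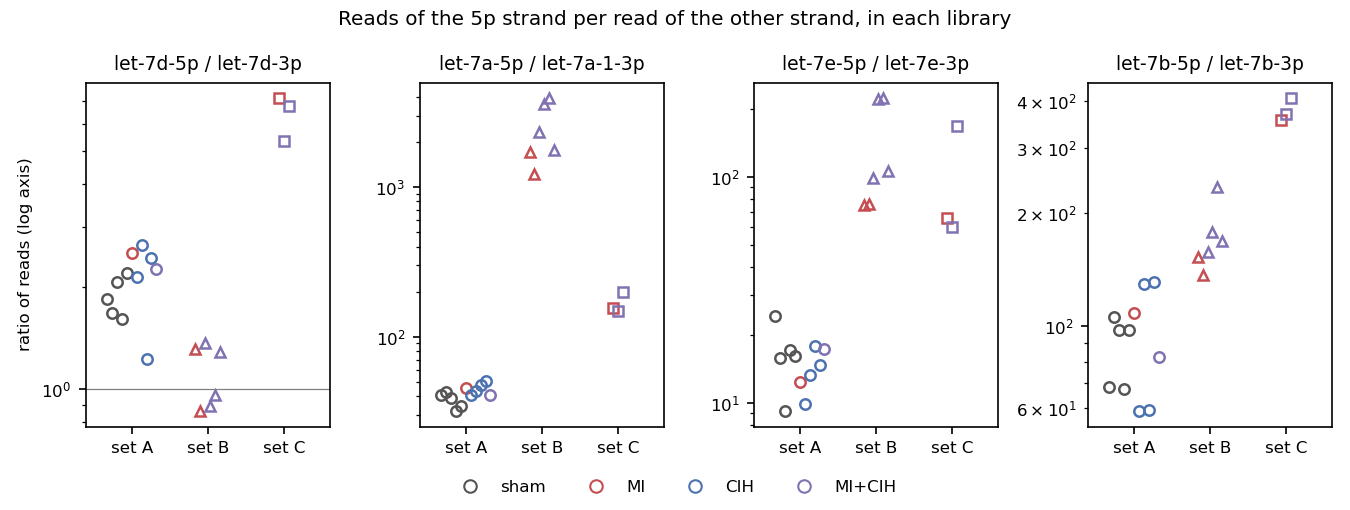
Points give, for each library, the reads of the 5p strand per read of the other strand (log axis) for let-7d, let-7a, let-7e and let-7b, by library set and coloured by group. Infarcted hearts of set A (MI 2 and MI+CIH 1) lie among the sham and CIH hearts of that set, and sets B and C lie apart from it for let-7a, let-7e and let-7b.

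The 3p strands of let-7g and miR-98 were near the limit of detection. let-7g-3p had 0 to 12 reads and miR-98-3p 0 to 10 reads a library, and 6 libraries had 0 reads of let-7g-3p, where a count of 0 allows up to 3 reads. let-7j stayed at or below 3.41 RPM.

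Of the miRNAs encoded beside let-7 hairpins, 5 of 5 rose in MI+CIH against sham, where 52.2% of all entries rose. miR-125a-5p, the neighbour of let-7e, changed by 3.28 (adjusted p 0.00257) and miR-125b-5p by 2.67 (adjusted p 0.00311). miR-99a-5p, the neighbour of let-7c-1, changed by 1.83 (adjusted p 0.00264), miR-99b-5p by 1.85 (adjusted p 0.0436) and miR-100-5p by 1.37 (adjusted p 0.0414). The median change over all entries was 1.39, so miR-100-5p did not rise more than the typical entry. Calls of these neighbours under other scalings are not given. In MI+CIH against CIH 3 of 5 rose (miR-99a-5p, miR-125a-5p and miR-125b-5p), near the 54.7% of all entries that rose there, and with the set as a term 0 of 5 passed in either. In MI against sham 0 of 5 passed and all 5 were positive.

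Neighbours parted in set C. miR-99a-5p had 21333 to 39086 RPM there and 5095 to 8877 RPM in set A, while miR-99b-5p had 1053 to 1134 RPM in set C, below its set A range of 1185 to 2178 RPM. miR-100-5p, at 2319 to 2678 RPM in set C, lay inside its set A range of 2073 to 3994 RPM. let-7e-5p, from the same cluster as miR-99b-5p and miR-125a-5p, was at 314 to 453 RPM in set C and 42.2 to 151 RPM in set A.

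Some markers of other cell types differed between MI+CIH and sham, where 52.2% of all entries rose and 4.44% fell, and their part in the let-7 differences was not tested. Of the fibroblast list (miR-199a-3p, miR-199a-5p and miR-214-3p), 3 of 3 rose in MI+CIH against sham, and their sum was 386 to 1844 RPM in sham, 187 to 423 RPM in CIH, 363 to 3935 RPM in MI and 1263 to 6822 RPM in MI+CIH. Of 5 leukocyte markers 2 rose (miR-223-3p and miR-155-5p), a share no larger than that of all entries, with sums of 281 to 652 RPM in sham, 248 to 505 RPM in CIH, 207 to 1599 RPM in MI and 361 to 1929.9 RPM in MI+CIH. Of 4 cardiac muscle markers 3 fell and miR-133a-3p rose, with sums of 193358 to 278561 RPM in sham, 252929 to 317712 RPM in CIH, 164340 to 300717 RPM in MI and 88403 to 269434 RPM in MI+CIH. No marker was at 0 in a whole group.

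Each of the remaining lists had 1 member past the threshold. Of 2 endothelial markers miR-126a-5p fell, with sums of 8459 to 10682 RPM in sham, 5976 to 10970.2 RPM in CIH, 5397 to 47505 RPM in MI and 3162 to 50262 RPM in MI+CIH. Of 2 smooth muscle markers miR-145a-5p rose, with sums of 198936 to 261394, 134524 to 246431, 25883 to 196138 and 33539 to 272741 RPM in the same order of groups. Of 2 erythroid markers miR-144-3p fell, with sums of 322 to 3105, 571 to 1956, 97.4 to 918 and 1097 to 5680.03 RPM. Of the liver and neuron markers 2 of 3 were tested and miR-122-5p rose, with sums of 107 to 142, 99.4 to 121, 111 to 757 and 60.9 to 283 RPM. By set, the fibroblast sum was 187 to 1844 RPM in A, 1263 to 5709 RPM in B and 3935 to 6822 RPM in C, and the leukocyte sum 207 to 652, 1209 to 1929.9 and 325 to 639.9 RPM. Such sums follow their most abundant members, and some members went the other way. miR-214-3p was higher in B (643 to 2407 RPM) than in C (85.1 to 248 RPM). miR-142a-3p was lower in B (0 to 4.25 RPM) than in A (4.49 to 32.6 RPM). The endothelial sum was 24768 to 50262 RPM in set C, against 5976 to 10970.2 RPM in A and 3162 to 7513 RPM in B. Within it, miR-126a-5p was instead lower in C (367 to 481 RPM) than in A (488 to 1821 RPM). The smooth muscle sum was 25883 to 41639 RPM in set C, against 134524 to 261394 RPM in A and 130564 to 272741 RPM in B. Within it, miR-145a-5p was instead higher in C (1405 to 2252 RPM) than in A (450 to 1327 RPM). The cardiac muscle sum was 88403 to 184642 RPM in set B, against 183298 to 317712 RPM in A and 241459 to 295409 RPM in C. Within it, miR-133a-3p was instead higher in B (8427 to 23097 RPM) than in A (1533 to 3637 RPM). The liver and neuron sum was 199 to 757 RPM in set B, against 83.7 to 142 RPM in A and 60.9 to 111 RPM in C. It was mostly miR-9-5p, at 193 to 732 RPM in set B. The erythroid sums of the 3 sets overlapped (97.4 to 5680.03 RPM in B, around the ranges of A and C).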

How the data were processed

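RNA from frozen mouse hearts was made into small RNA libraries with a NEBNext kit, per the labels' protocols. The submitters' processing notes name Bowtie, DESeq 1.8.3 and the build mm10 without roles, and the miRBase release and counting rules are not given in the sources used here. The deposited values are called TPM by the authors, but they are RPM: each column sums to 1000000, no length enters, and 100% of values lay within 0.05 reads of a whole number, which gave the reads back. limma 3.58.1 (R 4.3.3) was fitted to log2(RPM + 1) over all 20 libraries with 1 mean per group (16 residual degrees of freedom; 14 with the set term) and a trend, two-sided, adjusted by Benjamini-Hochberg over 360 entries per comparison, threshold 0.05. Changes are on this scale, which understates those of low entries. edgeR 4.0.16 and DESeq2 1.42.0 ran on the recovered reads. Library sets came from average-linkage clustering on Pearson's r, cut to a preset number of sets. The pipeline was tested on simulated data. Second copies of other entries (12 pairs within 5%) held 7.79% to 31.6% of reads. Replicates were distinct (0 identical pairs). Named entries were the 9 members, their other strands, same-seed and neighbouring miRNAs, marker lists, and the 5 most alike by r. The members, lists and sets were chosen with earlier results of these data known. The plan called the unit TPM and its test was kept.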

Additional observations from a re-analysis of the deposited data

Results flagged for a closer look

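Of 40 sets of values (the members and their sum in each group), 8 held a heart far from the others of its group; about 1 in 20 would by chance. In sham, let-7d-5p was highest in sham 4 (239 RPM, beside 146 to 168 RPM in the others) and let-7i-5p in sham 1 (2924 RPM, beside 1072 to 1391 RPM). In MI, MI 2 was lowest for let-7i-5p (2114 RPM, beside 7061 to 8712 RPM) and for the family sum (12385 RPM). In MI+CIH, MI+CIH 1 was lowest for let-7g-5p (1332 RPM, beside 6229 to 9385 RPM), let-7i-5p (3012 RPM) and miR-98-5p (22.9 RPM). In CIH, miR-98-5p was lowest in CIH 4 (14.7 RPM, beside 21.4 to 21.9 RPM). Of these 8 values 5 belong to MI 2 and MI+CIH 1, the infarcted hearts that clustered with sham and CIH hearts on entries outside the family.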

How the results depend on the processing

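Infarction and library set cannot be told apart beyond MI 2 and MI+CIH 1, RPM moves with a few abundant entries, and low 3p strands rest on few reads. Members called in MI against sham (0) became 5 with a mean filter of 50 RPM, 8 with DESeq2, 9 without sham 1 and MI 2, 9 without MI 2 and MI+CIH 1, and 0 to 9 leaving out single libraries. The 9 called in MI+CIH against sham and against CIH became 0 with the set term, with or without median-of-ratios scaling, and those against CIH 3 under TMM and 5 with edgeR; leaving out single libraries gave 9 in each. The replicate block (replicate number as a term) left 9 and 9 called and 0 elsewhere; same-numbered libraries did not go together (r from -0.711 to 0.867 over 25 pairs, 10 above 0.1; 4 of 18 libraries were most like their own number). Without second copies of entries the mean family sum was 12721 RPM in sham, 14013 RPM in CIH, 65464 RPM in MI and 97676 RPM in MI+CIH. Signs turned as follows; the cause was not tested. MI against sham, set term: let-7b-5p -0.067, let-7c-5p -9.56e-05, let-7e-5p -0.16 (-0.0394 with median-of-ratios). MI+CIH against sham, median-of-ratios and set term: let-7d-5p -0.13. MI+CIH against CIH, same setting: let-7a-5p -0.11, let-7b-5p -0.0049, let-7d-5p -0.39, let-7g-5p -0.22, miR-98-5p -0.14. MI+CIH against MI: let-7d-5p -0.0517 and let-7g-5p -0.13 (median-of-ratios), -0.081 and -0.16 (TMM), -0.27 and -0.24 (with the set term too, let-7a-5p -0.11), -0.0081 and -0.21 (edgeR), let-7g-5p -0.22 (DESeq2). Without sham 1 and MI 2, let-7a-5p was -0.14, let-7b-5p -0.17, let-7d-5p -0.40 and let-7g-5p -0.17; leaving out single libraries they ranged from -0.14 to 0.98, -0.17 to 1.45, -0.40 to 0.91 and -0.17 to 0.69. The members' median in CIH against sham was 0.27 (median-of-ratios, with or without the set term), 0.22 (TMM, and edgeR), 0.23 (DESeq2), 0.0056 (replicate block), 0.040 (second copies out), 0.0080 (sham 1 and MI 2 out) and -0.084 to 0.056 leaving out single libraries. That of the interaction was -0.21 (median-of-ratios), -0.34 (with the set term), -0.19 (TMM), -0.047 (DESeq2), -0.071 (sham 1 and MI 2 out) and -0.014 to 0.94 leaving out single libraries. Among the members' and medians' values under alternatives other than leaving out 1 library, 414 kept sign and call. With the sign kept, 50 no longer passed and 31 newly passed, and 37 changed sign, whatever their call. Leaving out 1 library, 736 kept both, 17 newly passed with the sign kept and 7 changed sign.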
